A study of Homo sapiens with 8 samples.

Results

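The genes described here encode the transforming growth factor beta (TGF-beta) ligands TGFB1, TGFB2 and TGFB3 and the activin A subunit INHBA. They also encode the receptors TGFBR1, TGFBR2 and TGFBR3, the signal transducer SMAD3, the inhibitory SMAD7 and the latency protein LTBP1. They were found by symbol in both deposited expression tables, and all 10 of them were among the 19479 genes listed. RNA was sequenced from AC16, a dividing human line derived by fusing ventricular cardiomyocytes with a fibroblast line. The 8 libraries fall into 4 groups of 2. In the 25 to 50 mM group, cells kept for at least 3 passages in 25 mM D-glucose received a further 25 mM for 24 h, and in the 25 mM group they stayed at 25 mM. In the 5 to 50 mM group, cells kept for at least 3 passages in 5 mM D-glucose received a further 45 mM for 24 h, and in the 5 mM group they stayed at 5 mM. All cells grew in DMEM with serum, and none of the 8 libraries is labelled as an osmotic control.

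The design text calls the second library of each group a technical replicate, so a p-value given here reflects how far libraries of a group vary, and that variation may be purely technical. Library totals ran from 21538898 to 27372851 reads. Counting error alone did not account for the differences inside any group, which were widest at 5 mM, where chi-square per degree of freedom was 15.9, and narrowest at 5 to 50 mM, where it was 2.53. Of 15 cardiomyocyte markers, 2 passed 1 RPKM in at least 2 libraries, and MYL2 and NKX2-5, a ventricular light chain and a cardiac transcription factor, were at 0 in all 8. All 11 fibroblast markers passed. The cells' cardiomyocyte label was therefore not borne out by most of its defining markers.

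TGF-beta ligands are secreted as latent complexes, in which the mature dimer is held by its propeptide and tethered to the matrix by LTBP proteins. Once released, a ligand binds the type II receptor TGFBR2, which recruits and phosphorylates the type I receptor TGFBR1, and TGFBR1 then phosphorylates SMAD2 and SMAD3. TGFBR3, also called betaglycan, presents ligand and is needed above all for TGFB2, which binds TGFBR2 weakly by itself. SMAD7 is induced by the pathway and restrains it at the receptor. Activin A, a dimer of INHBA subunits, acts through its own receptors but on the same SMAD2 and SMAD3. In heart and other tissues the pathway is known for its part in fibroblast activation and matrix deposition.

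Values are RPKM, read numbers divided by a gene's length and by the size of its library. Log2 changes were fitted on log2(RPKM + 1) with limma, and a gene was called where its p, adjusted by Benjamini-Hochberg over all genes tested, was under 0.05. The 25 mM and 5 mM cultures were deposited in separate tables, so culture history and any processing batch that goes with a table cannot be told apart in any comparison across them. In bulk RNA, fewer cells of a type and less RNA per cell cannot be told apart either.

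The 2 main ligand genes differed in opposite directions between the culture histories, and their promoters are shown for that reason. TGFB2 lies on the plus strand at chr1:218345336-218444619 and TGFB1 on the minus strand at chr19:41330323-41353922 of GRCh38. The 250 bases before each annotated start site follow, from RefSeq GRCh38.p14, at chr1:218345086-218345335 and chr19:41353923-41354172, each 5′ to 3′ on its gene's own strand. Capitals mark matches, on either strand, to any of 7 motifs.
TGFB2: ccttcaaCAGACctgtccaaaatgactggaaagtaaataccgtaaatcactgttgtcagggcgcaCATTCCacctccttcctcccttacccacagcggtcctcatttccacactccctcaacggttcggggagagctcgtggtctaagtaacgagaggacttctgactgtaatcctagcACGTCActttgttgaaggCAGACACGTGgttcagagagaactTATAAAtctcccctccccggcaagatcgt
TGFB1: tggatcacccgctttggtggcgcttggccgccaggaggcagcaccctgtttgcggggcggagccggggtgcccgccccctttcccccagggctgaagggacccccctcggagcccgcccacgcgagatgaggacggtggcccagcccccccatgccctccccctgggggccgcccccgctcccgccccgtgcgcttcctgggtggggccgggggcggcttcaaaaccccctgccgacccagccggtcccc

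The motifs searched were the cyclic AMP response element TGACGTCA, its half-site ACGTCA, the E-box CACGTG, the AP-1 site TGANTCA, the SMAD box CAGAC, the TEAD site GGAATG and the TATA box TATAAA. The TGFB2 window held the half-site at -71 to -66 from the start site, an E-box at -49 to -44, a SMAD box at -243 to -239 and another at -53 to -49, which shares 1 base with the E-box. It also held a TEAD match on the other strand at -185 to -180 and a TATA box at -29 to -24. Of 27303 promoter windows of this length, 7.4% held the half-site, 6.5% the E-box, 37.8% the SMAD box, 11.9% the TEAD match and 11.1% the TATA box. The full element was found in 1.8% of windows and the AP-1 site in 6.6%, and neither was in the TGFB2 window. The TGFB1 window held none of the 7 motifs. It was 76.8% GC, against 50.4% for TGFB2. These matches describe letters only.

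TGFB2 transcripts were more abundant at 5 to 50 mM than at 5 mM, and more abundant in the 25 mM history than in the 5 mM history at either glucose level. TGFB2 had 47.6 and 52.3 RPKM in the 25 to 50 mM libraries and 37.9 and 37.0 RPKM in the 25 mM libraries. It had 29.65 and 31.0 RPKM in the 5 to 50 mM libraries and 18.8 and 19.0 RPKM in the 5 mM libraries. The 4 groups did not overlap, and every library of the 25 mM history was above every library of the 5 mM history. After the rise from 5 mM, TGFB2 was 1.57-fold higher (log2 change 0.65 ± 0.069, SE; adjusted p = 0.0451 in limma). This was the only one of the 9 members tested that was called there, where 0.329% of all genes tested were called. Leaving 1 library out of a rise leaves 1 library in its group, so the spread then comes from the pair in the other group alone and the lone library is assumed to vary like that pair. In such fits the TGFB2 call was lost without 5 to 50 mM replicate 1 (adjusted p = 0.319) and without 5 to 50 mM replicate 2 (adjusted p = 0.511), while the log2 change stayed between 0.62 and 0.68 over the alternatives. It was also lost without the filter, without limma's trend and with replicate number as a block, as the closing section gives.

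The rise from 25 mM gave a TGFB2 log2 change of 0.41 ± 0.065 (SE), 1.32-fold, with both 25 to 50 mM libraries above both 25 mM libraries. Its p was 6.52e-04 before and 0.321 after adjustment with limma, so it was not called. Without 25 to 50 mM replicate 2 it was called (adjusted p = 0.0058), in a fit that rests on 1 library at 25 to 50 mM, takes its spread from the 25 mM pair and called 777 genes. No member was called in this comparison, in which 0.00876% of all genes tested were called. At an unadjusted p under 0.05, 2 members were higher and 1 was lower, against 9.25% of all genes in either direction, and voom on recovered reads also called none. Between the histories, TGFB2 was 1.93-fold higher at 25 mM than at 5 mM (log2 0.95 ± 0.063, adjusted p = 2.76e-05 in limma). It was 1.63-fold higher at 25 to 50 mM than at 5 to 50 mM (log2 0.70 ± 0.063, adjusted p = 1.13e-04 in limma). Both calls held in 15 of 15 alternatives. In every comparison of the histories, some alternatives leave out a library of a group not compared. These can change the spread but not the log2 change.

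TGFB1, the most widely studied ligand of the family, went the other way between the histories. It had 38.6 and 34.5 RPKM in the 25 to 50 mM libraries and 32.2 and 41.1 RPKM in the 25 mM libraries. It had 76.7 and 72.4 RPKM in the 5 to 50 mM libraries and 48.3 and 67.3 RPKM in the 5 mM libraries. The 25 to 50 mM and 25 mM libraries overlapped, and all 4 libraries of the 25 mM history were below all 4 of the 5 mM history. TGFB1 was lower at 25 to 50 mM than at 5 to 50 mM by a log2 change of -1.01 ± 0.16 (SE; adjusted p = 0.00202 in limma), 2.01-fold, and this call held in 15 of 15 alternatives. At 25 mM against 5 mM the log2 change was -0.64 ± 0.16 (adjusted p = 0.0174 in limma), and the call was lost without 25 mM replicate 1 (adjusted p = 0.119) and without 5 mM replicate 3 (adjusted p = 0.0559).

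Neither rise gave a TGFB1 call. The log2 change was 0.00 ± 0.12 from 25 mM (adjusted p = 0.992 in limma), with a 95% interval of -0.28 to 0.29. From 5 mM it was 0.38 ± 0.16 (adjusted p = 0.483 in limma), with both 5 to 50 mM libraries above both 5 mM libraries. The 5 mM replicates were far apart, replicate 3 having 1.39 times the TGFB1 of replicate 1. Without 5 mM replicate 3, the log2 change from 5 mM was 0.62 and was called (adjusted p = 0.00531), in a fit with 1 library at 5 mM and the spread of the 5 to 50 mM pair alone, in which 560 genes were called. The TGFB1 transcript is 63.5% GC, above 93.8% of genes. In 5 mM replicate 3 against replicate 1 genes of at least 58.4% GC had a median log2 difference of 0.27, and genes of at most 40.9% GC one of -0.071. In 25 mM replicate 3 against replicate 1 these medians were 0.046 and 0.044, with a TGFB1 ratio of 1.27. They were -0.16 and 0.039 in 25 to 50 mM replicate 3 against replicate 2, with a ratio of 0.893. In 5 to 50 mM replicate 2 against replicate 1 they were -0.039 and -0.0017, with a ratio of 0.944. The part of GC content in the TGFB1 differences was not tested. With a GC correction, chosen after seeing the data, the log2 change from 5 mM was 0.40 (adjusted p = 0.0403 in limma).

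TGFB3 was near the limit of detection in every group. It had 0.327 and 0.290 RPKM at 25 to 50 mM, 0.0905 and 0.207 RPKM at 25 mM, 0.241 and 0.589 RPKM at 5 to 50 mM, and 0.187 and 0.470 RPKM at 5 mM. These values rest on 3 to 17 reads a library, and 3 reads correspond to 0.112 RPKM in the shallowest library. TGFB3 did not reach 1 RPKM in any library and was not tested. A difference between groups was not detectable at this depth.

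The balance of ligand transcripts therefore differed between the histories, on the RPKM scale. The ratio of TGFB2 to TGFB1 was 1.23 and 1.52 in the 25 to 50 mM libraries and 1.18 and 0.901 in the 25 mM libraries. It was 0.386 and 0.428 in the 5 to 50 mM libraries and 0.39 and 0.282 in the 5 mM libraries. TGFB2 made up 47.3% to 60.1% of the summed TGFB1, TGFB2 and TGFB3 RPKM in the 25 mM history, and 21.9% to 29.8% in the 5 mM history. The sum itself was 86.57 and 87.1 RPKM at 25 to 50 mM, 70.16 and 78.28 RPKM at 25 mM, 106.6 and 104.0 RPKM at 5 to 50 mM, and 67.34 and 86.77 RPKM at 5 mM. The summed level thus overlapped between the 25 mM and the 5 mM libraries, where the share of TGFB2 did not. Between the 50 mM groups neither overlapped, and the sum was lower at 25 to 50 mM. The TGFB2 and TGFB1 transcripts are 38.9% and 63.5% GC, and the part of GC content in their ratio was not tested.

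**Figure D1:**
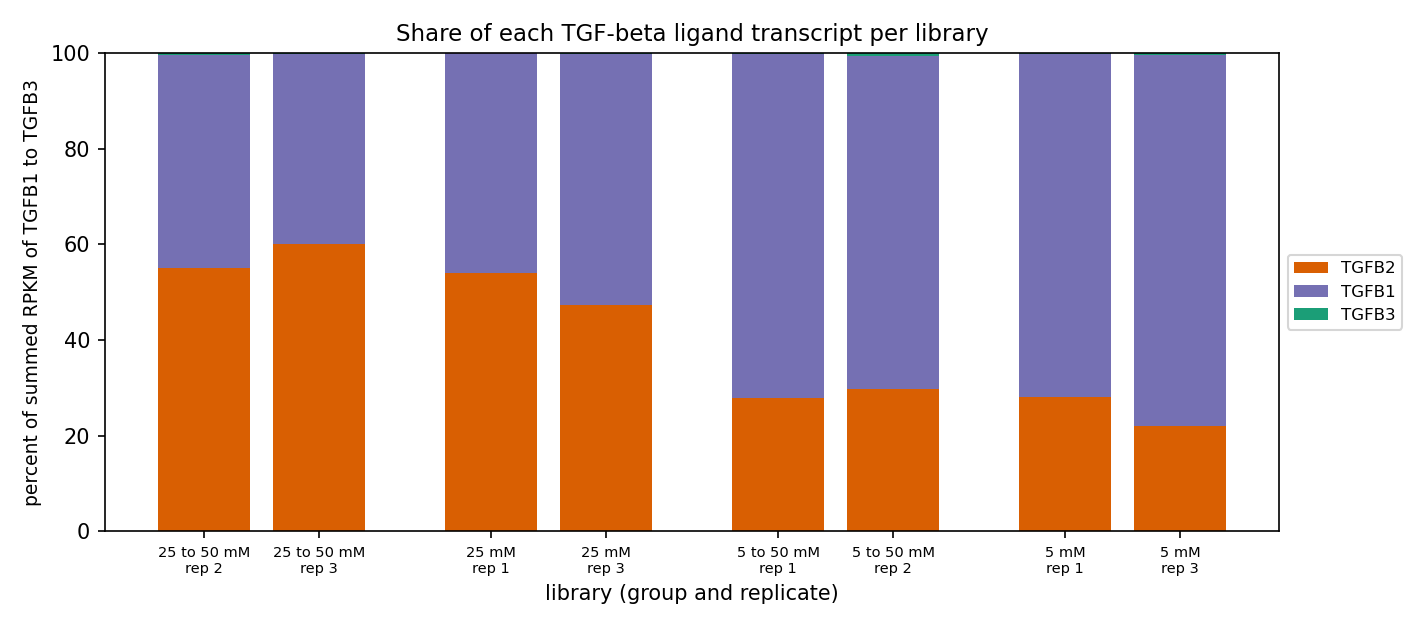
Bars show, for each library, the percent of the summed RPKM of the 3 TGF-beta ligand genes that TGFB2, TGFB1 and TGFB3 take, grouped by glucose condition on the x axis. TGFB2 takes 47.3% to 60.1% in the 4 libraries of the 25 mM history and 21.9% to 29.8% in the 4 of the 5 mM history.

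INHBA, at chr7:41685114-41705406, was lower in the 25 mM history at either glucose level. It had 26.7 and 27.5 RPKM in the 25 to 50 mM libraries and 20.2 and 21.5 RPKM in the 25 mM libraries. It had 45.8 and 46.4 RPKM in the 5 to 50 mM libraries and 39.7 and 36.6 RPKM in the 5 mM libraries. No 2 of the 4 groups overlapped. INHBA was 1.79-fold lower at 25 mM than at 5 mM (log2 change -0.84 ± 0.063, SE; adjusted p = 4.89e-05 in limma) and 1.68-fold lower at 25 to 50 mM than at 5 to 50 mM (log2 change -0.74 ± 0.063; adjusted p = 8.38e-05). Both calls held in 15 of 15 alternatives.

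Neither rise gave an INHBA call. From 25 mM its log2 change was 0.36 ± 0.066 (adjusted p = 0.364 in limma), and from 5 mM it was 0.27 ± 0.069 (adjusted p = 0.290). INHBA was called from 25 mM without 25 to 50 mM replicate 2 (adjusted p = 0.0288), and from 5 mM without 5 mM replicate 1 (adjusted p = 0.0309). In these fits 1 group is a single library and the spread is that of the other group alone, and they called 777 and 805 genes. The inhibin alpha gene INHA and the other beta subunit genes INHBB, INHBC and INHBE stayed under 1 RPKM in all 8 libraries, so INHBA was the subunit transcript that passed the filter.

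**Figure D2:**
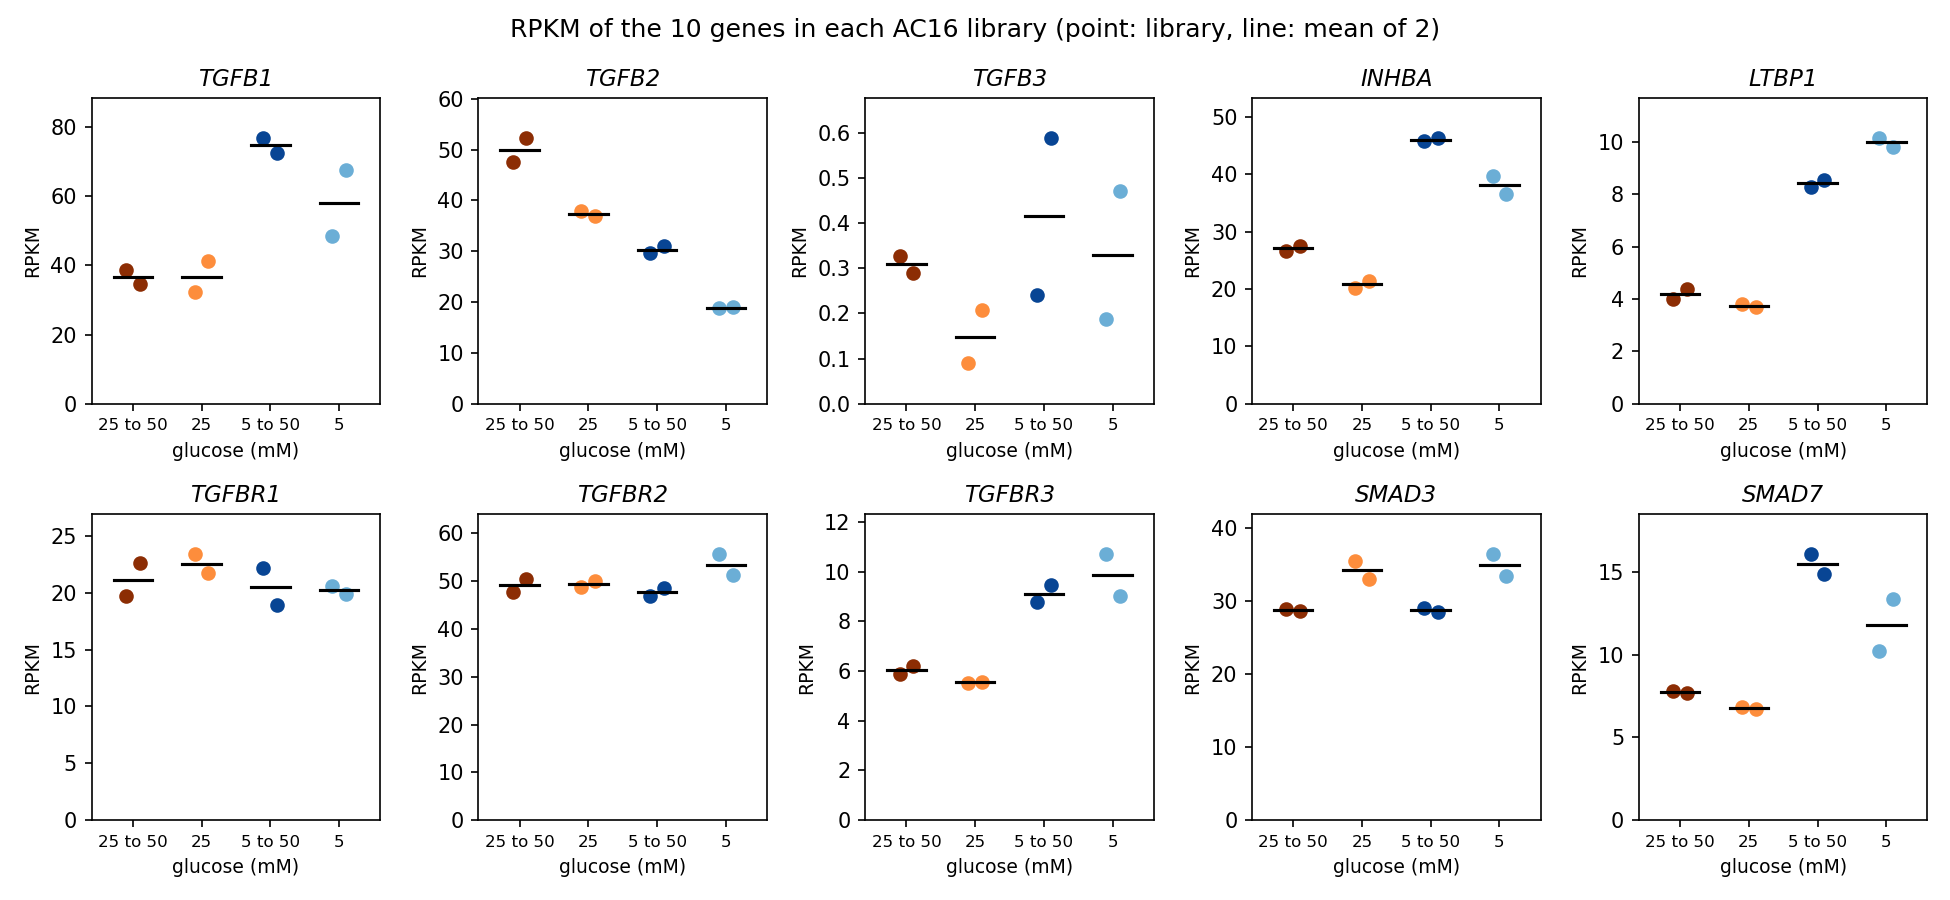
Each panel shows 1 gene's RPKM on a linear axis from 0, with a point for each library and a line for the mean of 2, in the 4 glucose groups. TGFB2 is highest at 25 to 50 mM (47.6 and 52.3 RPKM), TGFB1, INHBA, SMAD7, LTBP1 and TGFBR3 are higher in both groups of the 5 mM history, and SMAD3 has its lower values in both 50 mM groups.

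No difference passed the test for the signalling receptors TGFBR1 and TGFBR2. TGFBR2, at chr3:30606356-30694142, had 47.8 and 50.6 RPKM at 25 to 50 mM, 48.8 and 50.1 RPKM at 25 mM, 46.9 and 48.6 RPKM at 5 to 50 mM, and 55.7 and 51.2 RPKM at 5 mM. TGFBR1, at chr9:99103647-99154192, had 19.7 and 22.6 RPKM at 25 to 50 mM, 23.4 and 21.7 RPKM at 25 mM, 22.15 and 18.9 RPKM at 5 to 50 mM, and 20.6 and 19.85 RPKM at 5 mM. The 5 mM libraries were the highest for TGFBR2, and for TGFBR1 the groups overlapped except those at 25 mM and 5 mM. Neither gene was called in any of the 5 comparisons. The 95% intervals of the log2 change at 25 mM against 5 mM were -0.25 to 0.031 for TGFBR2 and -0.076 to 0.38 for TGFBR1. Between the 50 mM groups they were -0.098 to 0.18 for TGFBR2 and -0.18 to 0.27 for TGFBR1. Between the 50 mM groups TGFBR2 was called with the GC correction alone (log2 change 0.15, adjusted p = 0.0381 in limma).

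The co-receptor TGFBR3, at chr1:91680343-91906002, did differ between the histories. It had 5.87 and 6.19 RPKM at 25 to 50 mM, 5.50 and 5.57 RPKM at 25 mM, 8.78 and 9.45 RPKM at 5 to 50 mM, and 10.7 and 9.02 RPKM at 5 mM. All 4 libraries of the 25 mM history were below all 4 of the 5 mM history, the reverse of TGFB2. TGFBR3 was 1.66-fold lower at 25 mM than at 5 mM (log2 change -0.73 ± 0.095, SE; adjusted p = 7.75e-04 in limma) and 1.44-fold lower at 25 to 50 mM than at 5 to 50 mM (log2 change -0.52 ± 0.095; adjusted p = 0.00347). Both calls held in 15 of 15 alternatives, and neither rise gave one (adjusted p = 0.692 from 25 mM and 0.830 from 5 mM).

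SMAD3, the receptor-activated transcription factor at chr15:67065602-67195169, had its lower values at 50 mM in both histories. It had 28.9 and 28.7 RPKM at 25 to 50 mM and 35.5 and 33.05 RPKM at 25 mM. It had 29.05 and 28.5 RPKM at 5 to 50 mM and 36.4 and 33.3 RPKM at 5 mM. All 4 libraries at 50 mM were below all 4 at the starting concentrations. The log2 change was -0.24 ± 0.063 from 25 mM (adjusted p = 0.490 in limma) and -0.27 ± 0.073 from 5 mM (adjusted p = 0.315). Neither was called, though the second was called without 5 mM replicate 3 (adjusted p = 0.0386), with 1 library at 5 mM and the spread of the 5 to 50 mM pair alone. Between the histories the log2 change was -0.02 at the starting concentrations, with a 95% interval of -0.17 to 0.13, and 0.00 at 50 mM, with an interval of -0.15 to 0.15.

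SMAD7, the inhibitory SMAD at chr18:48919853-48950965, was lower in the 25 mM history. It had 7.79 and 7.66 RPKM at 25 to 50 mM, 6.85 and 6.73 RPKM at 25 mM, 16.1 and 14.9 RPKM at 5 to 50 mM, and 10.2 and 13.4 RPKM at 5 mM. Every library of the 25 mM history was below every library of the 5 mM history, and in both histories the 50 mM libraries had the higher values. SMAD7 was 1.89-fold lower at 25 to 50 mM than at 5 to 50 mM (log2 change -0.92 ± 0.12, SE; adjusted p = 6.25e-04 in limma) and 1.63-fold lower at 25 mM than at 5 mM (log2 change -0.70 ± 0.12; adjusted p = 0.00236). Both calls held in 15 of 15 alternatives. The rises gave log2 changes of 0.16 from 25 mM (adjusted p = 0.557 in limma) and 0.38 from 5 mM (adjusted p = 0.430), and the second was called without 5 mM replicate 3 (log2 0.55, adjusted p = 0.0257), again with 1 library at 5 mM and the spread of the 5 to 50 mM pair alone.

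LTBP1, which tethers latent TGF-beta to the matrix and lies at chr2:32946953-33399509, showed the largest difference between the histories among the 9 members tested at the starting concentrations. It had 4.005 and 4.38 RPKM at 25 to 50 mM, 3.80 and 3.69 RPKM at 25 mM, 8.30 and 8.57 RPKM at 5 to 50 mM, and 10.2 and 9.82 RPKM at 5 mM. The 4 groups did not overlap. LTBP1 was 2.31-fold lower at 25 mM than at 5 mM (log2 change -1.21 ± 0.078, SE; adjusted p = 2.55e-05 in limma) and 1.82-fold lower at 25 to 50 mM than at 5 to 50 mM (log2 change -0.86 ± 0.078; adjusted p = 1.26e-04). Both calls held in 15 of 15 alternatives. These folds are on the log2(RPKM + 1) scale, which understates changes of low genes, and the mean RPKM of LTBP1 at 25 mM was 0.375 times that at 5 mM.

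The members were chosen with earlier results of these data known. Counted together, 1 member was called higher and 5 were called lower at 25 mM than at 5 mM, of 9 tested. In that comparison 39.1% of all genes tested were called in either direction, 17.0% higher and 22.1% lower. At 25 to 50 mM against 5 to 50 mM the same counts held, 1 higher and 5 lower of 9, beside 41.4% of all genes tested, 18.1% higher and 23.3% lower. The groups of 8 members did not overlap at the starting concentrations (2 higher, 6 lower) and those of 6 did not at 50 mM (1 higher, 5 lower), beside 67.8% and 74.8% of all genes tested. By direction, 32.4% of all genes tested were higher and 35.3% lower at the starting concentrations, and 34.8% and 39.9% at 50 mM. The median log2 change of the members was -0.64 at the starting concentrations and -0.52 at 50 mM, against -0.0040 and -0.023 for all genes tested. These 2 comparisons set different libraries against each other but share the 2 cultures. Both were fitted on all 8 libraries with a shared spread, so neither is independent of the other. TGFB2 was the member called higher in both, and TGFB1, INHBA, TGFBR3, SMAD7 and LTBP1 were called lower in both.

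Within the histories the members' groups often stood apart, as did those of many genes. After the rise from 25 mM, 5 members were higher in both libraries and 1 was lower in both, beside 43.5% of all genes tested whose groups did not overlap in either direction. By direction, 14.4% of all genes tested were higher and 29.1% lower. After the rise from 5 mM, 4 were higher in both and 3 were lower in both, beside 42.6% of all genes tested. At an unadjusted p under 0.05, 3 members were higher and 2 lower after the rise from 5 mM, beside 10.5% of all genes.

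The rises were also set against each other, as the log2 change from 5 mM minus that from 25 mM. No member was called in this difference, in which 0.0251% of all genes tested were called, and voom on recovered reads called none either. At an unadjusted p under 0.05, 1 member was higher (TGFB2, log2 difference 0.25 ± 0.088, adjusted p = 0.760 in limma) and 1 was lower (LTBP1, -0.35 ± 0.11, adjusted p = 0.687), beside 6.04% of all genes. TGFB2 therefore was called in one history and not in the other, while the difference between its rises did not pass the test. Its 95% interval ran from 0.042 to 0.45.

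**Figure D3:**
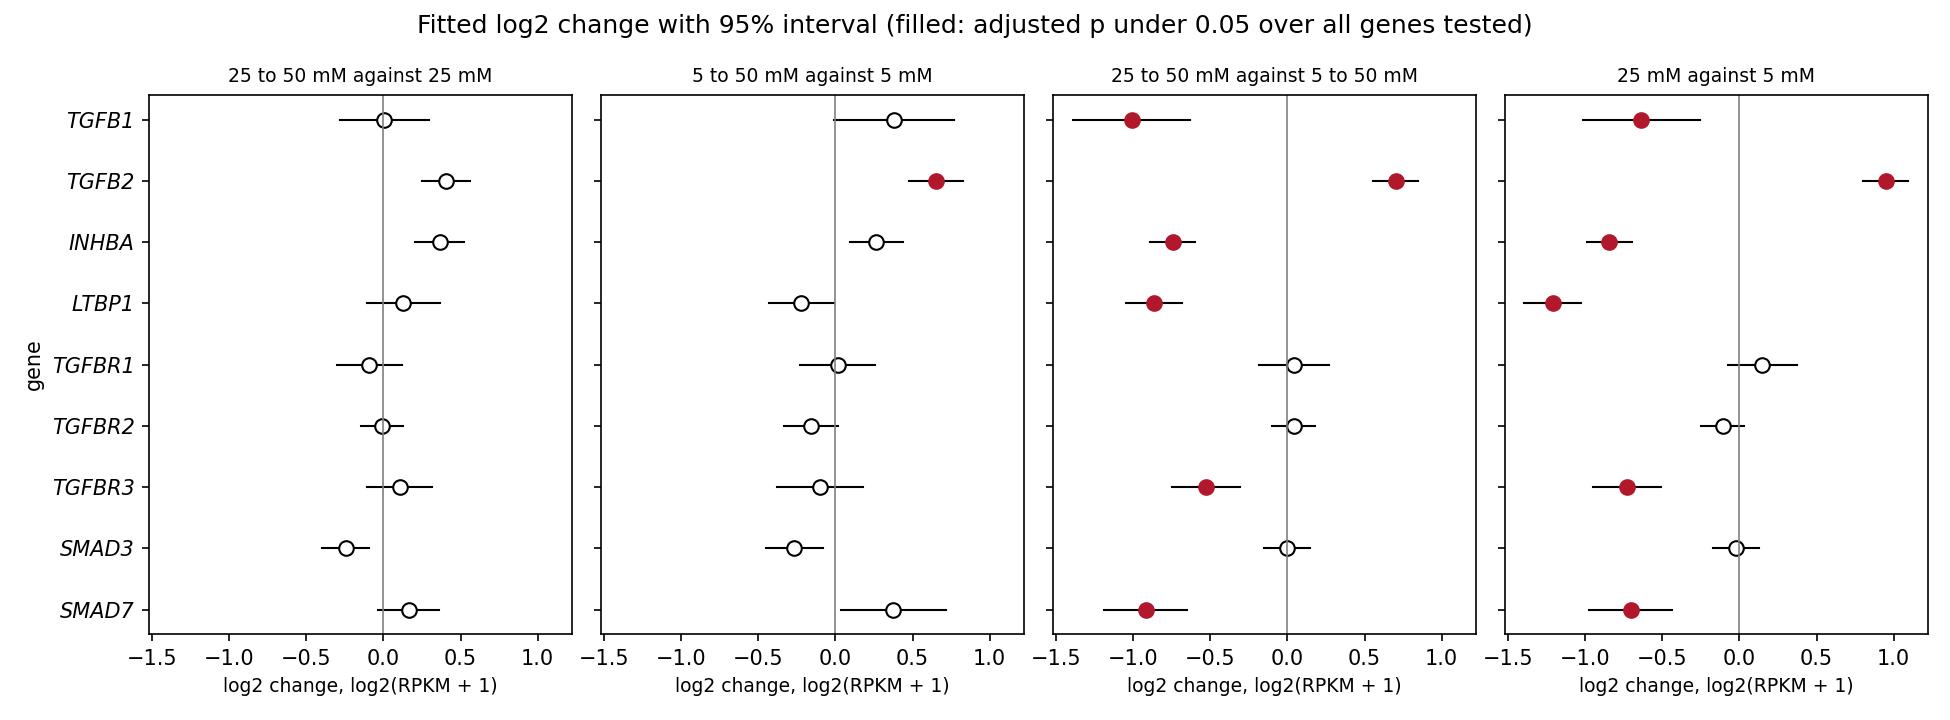
Points show the fitted log2 change of 9 members on log2(RPKM + 1) in 4 comparisons, with 95% intervals as lines, and filled points are those with an adjusted p under 0.05. In both comparisons of the histories, TGFB2 lies to the right of 0 and TGFB1, INHBA, LTBP1, TGFBR3 and SMAD7 to the left, and among the rises the TGFB2 change from 5 mM (0.65) is the filled point.

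The order of the members, compared per length in RPKM, changed with the history. At 25 to 50 mM TGFB2 had the highest mean, 49.96 RPKM, with TGFBR2 at 49.17 RPKM overlapping it. At 25 mM TGFBR2 led, and TGFB2, TGFB1 and SMAD3 followed with 37.43, 36.65 and 34.27 RPKM, the libraries of each overlapping those of the next. At 5 to 50 mM TGFB1 led with 74.56 RPKM, above TGFBR2 with 47.73 RPKM and INHBA with 46.07 RPKM, and TGFB2 followed with 30.31 RPKM. At 5 mM TGFB1 led with 57.83 RPKM, overlapping TGFBR2 with 53.45 RPKM, and TGFB2 stood below TGFBR1 with 18.9 RPKM. SMAD7, TGFBR3, LTBP1 and TGFB3 took the last 4 places in all groups, TGFB3 the last.

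Genes of the wider pathway were described in 7 lists, which share some genes with each other and with the members. The lists, like the members, were chosen with earlier results of these data known. Of the 16 latency and activation genes tested, 1 was called higher (FBN1, a fibrillin of the matrix microfibrils) and 8 were called lower at 25 mM than at 5 mM. Their median log2 change was -0.25, against -0.0040 for all genes tested. Between the 50 mM groups, 1 was higher and 9 were lower. The calls made up 56.2% and 62.5% of the list, beside 39.1% and 41.4% of all genes tested. Over all genes, 22.1% and 23.3% were called lower. Over the alternatives, 6 to 8 and 7 to 10 were lower in these 2 comparisons. MMP14, a membrane protease able to release TGF-beta from its latent complex, averaged 70.8 ± 7.0 RPKM at 25 to 50 mM, 72.6 ± 3.6 RPKM at 25 mM, 218.1 ± 1.7 RPKM at 5 to 50 mM and 255.8 ± 24 RPKM at 5 mM (SD, n = 2 each). ITGB5, the beta subunit of an integrin that binds latent TGF-beta, averaged 31.5 ± 0.87, 24.5 ± 0.62, 70.8 ± 0.52 and 57.2 ± 0.86 RPKM in the same groups and order. FURIN, the convertase that cleaves the ligand precursor, averaged 14.2 ± 1.9, 13.6 ± 0.47, 35.6 ± 2.0 and 26.5 ± 6.2 RPKM. These 3 genes were called lower in the 25 mM history in both comparisons, and each call held in 15 of 15 alternatives.

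Among 6 activin, bone morphogenetic protein (BMP) and growth differentiation factor genes tested, none was called higher at 25 mM than at 5 mM. INHBA, BMP4 and GDF15 were called lower, 3 of 6, beside 22.1% of all genes tested. Without 5 mM replicate 3, and with the GC correction, 2 were called higher and 3 lower. The other 24 of the 30 genes listed did not pass the filter on low values. GDF15, a stress-induced secreted factor, had 1.89 and 0.561 RPKM at 25 to 50 mM, 1.46 and 1.71 RPKM at 25 mM, 16.0 and 13.8 RPKM at 5 to 50 mM, and 16.3 and 31.8 RPKM at 5 mM. It was 9.24-fold lower at 25 mM than at 5 mM on the log2(RPKM + 1) scale (log2 change -3.21 ± 0.34, SE; adjusted p = 2.86e-04 in limma) and 15.2-fold lower by the ratio of mean RPKM. BMP4 averaged 3.995 ± 0.035, 4.11 ± 0.077, 8.70 ± 0.61 and 8.81 ± 1.0 RPKM at 25 to 50 mM, 25 mM, 5 to 50 mM and 5 mM.

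Of 12 receptor genes tested, 3 of them members, 2 were called higher and 5 lower at 25 mM than at 5 mM. At 25 to 50 mM against 5 to 50 mM, 1 was called higher and 4 lower. The calls made up 58.3% and 41.7% of the list, beside 39.1% and 41.4% of all genes tested. At 25 mM against 5 mM, the 5 lower calls were 3 without 25 mM replicate 3. The 2 higher calls there were 0 without 25 mM replicate 1 or with the replicate block, and 1 without 25 mM replicate 3, 5 mM replicate 3 or either 5 to 50 mM library. Between the 50 mM groups, the 1 higher call was lost on leaving out any 1 of the 4 libraries at 50 mM and with the replicate block, and with the GC correction 5 were higher and 4 lower. ENG, an accessory receptor related to TGFBR3, was lower at 25 to 50 mM (117.3 ± 4.9 RPKM) than at 5 to 50 mM (185.2 ± 4.9 RPKM), with a log2 change of -0.66 ± 0.074 (adjusted p = 3.55e-04 in limma). The type I receptor ACVR1 averaged 28.6 ± 0.13 RPKM at 25 mM and 37.5 ± 2.4 RPKM at 5 mM (adjusted p = 0.00362 in limma). Of the 8 SMAD genes, 2 were called higher (SMAD1 and SMAD9) and 2 lower (SMAD2 and SMAD7) at 25 mM than at 5 mM, beside the 39.1% called over all genes tested. With the GC correction 4 were higher and 2 lower. The SMAD1 and SMAD2 calls were each lost without either 25 mM library, 5 mM replicate 1 or either 5 to 50 mM library. Both were lost with the replicate block too (adjusted p = 0.102 and 0.0767 in limma). The SMAD1 call was also lost without 5 mM replicate 3, and the SMAD2 call with median centring (adjusted p = 0.0588 in limma).

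Of 20 negative regulators and antagonists, 4 were called higher and 6 lower at 25 mM than at 5 mM, beside 17.0% of all genes tested called higher and 22.1% lower. Their median log2 change was -0.043, against -0.0040 for all genes tested. The 4 higher calls were 2 without 25 mM replicate 3, without 5 mM replicate 1 or with the replicate block. The transcriptional repressors TGIF1 and TGIF2 went in opposite directions. TGIF1 averaged 20.3 ± 1.7 RPKM at 25 mM and 42.4 ± 4.1 RPKM at 5 mM (adjusted p = 7.37e-05 in limma), and TGIF2 averaged 8.52 ± 1.4 RPKM at 25 mM and 3.31 ± 0.089 RPKM at 5 mM (adjusted p = 2.43e-04). NEDD4L, a ubiquitin ligase of activated SMAD2 and SMAD3, averaged 24.4 ± 0.52 RPKM at 25 mM and 54.5 ± 5.6 RPKM at 5 mM. FKBP1A, which binds type I receptors, averaged 458.3 ± 6.8 RPKM at 25 mM and 913.9 ± 84 RPKM at 5 mM. All 4 of these calls held in 15 of 15 alternatives. At 25 to 50 mM against 5 to 50 mM, 2 genes of the list were higher and 7 lower, beside 18.1% and 23.3% of all genes tested, and 1 was higher on leaving out any 1 of the 4 libraries at 50 mM.

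Among 29 genes listed as targets of TGF-beta and SMAD3, 7 were called higher and 13 lower at 25 mM than at 5 mM, and 5 higher and 20 lower at 25 to 50 mM than at 5 to 50 mM. The calls made up 69% and 86.2% of the list, which was chosen with earlier results of these data known. Of all genes tested, 39.1% and 41.4% were called. Over all genes, 17.0% and 18.1% were called higher and 22.1% and 23.3% lower. The median log2 changes of the list were -0.20 and -0.33, against -0.0040 and -0.023 for all genes tested. The 5 higher calls were 3 without 25 to 50 mM replicate 2, without 5 to 50 mM replicate 1 or with the replicate block. The genes called higher in both were ANGPTL4, COL1A1, COL1A2, COL5A1 and IGFBP3. TIMP3, a metalloproteinase inhibitor, was 3.92-fold lower at 25 mM than at 5 mM (77.9 ± 1.0 against 308.3 ± 7.3 RPKM; adjusted p = 2.6e-07 in limma). ACTA2, smooth muscle actin, was 3.08-fold lower (6.78 ± 0.097 against 22.9 ± 0.96 RPKM; adjusted p = 4.07e-06), and the cell cycle inhibitor CDKN1A was 3.32-fold lower (52.8 ± 3.1 against 182.4 ± 59 RPKM; adjusted p = 8.27e-04). These 3 calls held in 15 of 15 alternatives. Of 6 smooth muscle markers, TAGLN and ACTA2 are also in this list. Summed RPKM of the 6, of which TAGLN made up 83.8% to 91.7%, was 966.0 to 992.0 at 25 to 50 mM, 619.0 to 645.0 at 25 mM, 1510.0 to 1580.0 at 5 to 50 mM and 1100.0 to 1120.0 at 5 mM. That of the other 4 was 95.1 to 106.0, 92.8 to 98.4, 104.0 to 106.0 and 83.4 to 101.0 in the same groups. TAGLN and ACTA2 were called lower and CNN1 and MYOCD higher at 25 mM than at 5 mM, and between the 50 mM groups the same 2 were lower and CNN1 was higher. Summed RPKM of 6 macrophage and leukocyte markers was 86.9 to 87.9, 93.3 to 93.4, 218.0 to 229.0 and 245.0 to 254.0 in the same groups. CD68 alone made up 98.0% to 98.6% of that sum, so the sum describes 1 gene. The part of either marker list in the result was not tested.

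After the rise from 5 mM, 4 of these 29 target genes were called higher and none lower, beside 0.329% of all genes tested. After the rise from 25 mM, 1 was called higher, beside 0.00876% of all genes tested. The list itself was chosen with earlier results of these data known. The genes named here were chosen after their values were seen. CTGF, a matricellular protein, averaged 292.5 ± 14 RPKM at 5 to 50 mM and 137.6 ± 5.2 RPKM at 5 mM (adjusted p = 0.0269 in limma). The basement membrane collagen COL4A1 averaged 124.8 ± 0.36 and 85.1 ± 3.2 RPKM (adjusted p = 0.0423) in the same groups and order. TAGLN, an actin-binding protein, was called in both rises (adjusted p = 0.0479 from 5 mM and 0.022 from 25 mM). THBS1, which can activate latent TGF-beta, was the latency gene called from 5 mM, with 690.1 ± 31 RPKM at 5 to 50 mM and 445.2 ± 13 RPKM at 5 mM (adjusted p = 0.0337 in limma). That call was lost without 5 to 50 mM replicate 1 (adjusted p = 0.192) and without 5 to 50 mM replicate 2 (adjusted p = 0.193). The count of target genes called higher from 5 mM was 1 without 5 to 50 mM replicate 1, 0 without 5 to 50 mM replicate 2, 8 without 5 mM replicate 1 and 15 without 5 mM replicate 3. From 25 mM it was 0 without either 25 mM library and 8 without 25 to 50 mM replicate 2.

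Of 8 genes listed as targets of BMP and SMAD1 or SMAD5, 2 were called higher (ATOH8 and ID3) and 1 lower (NOG) at 25 mM than at 5 mM, and none higher and 2 lower at 25 to 50 mM than at 5 to 50 mM. These are 37.5% and 25.0% of the list, beside 39.1% and 41.4% called over all genes tested. Without 5 mM replicate 3, 5 were higher at 25 mM than at 5 mM, and with the GC correction 4 were. The calls of ATOH8 and ID3 were weak, with adjusted p of 0.0489 and 0.0361 in limma. Both were lost without either 25 mM library, 5 mM replicate 1 or either 5 to 50 mM library. They were also lost without the filter, without limma's trend and with the replicate block. The ATOH8 call was lost with a pseudocount of 0.1 as well.

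**Figure D4:**
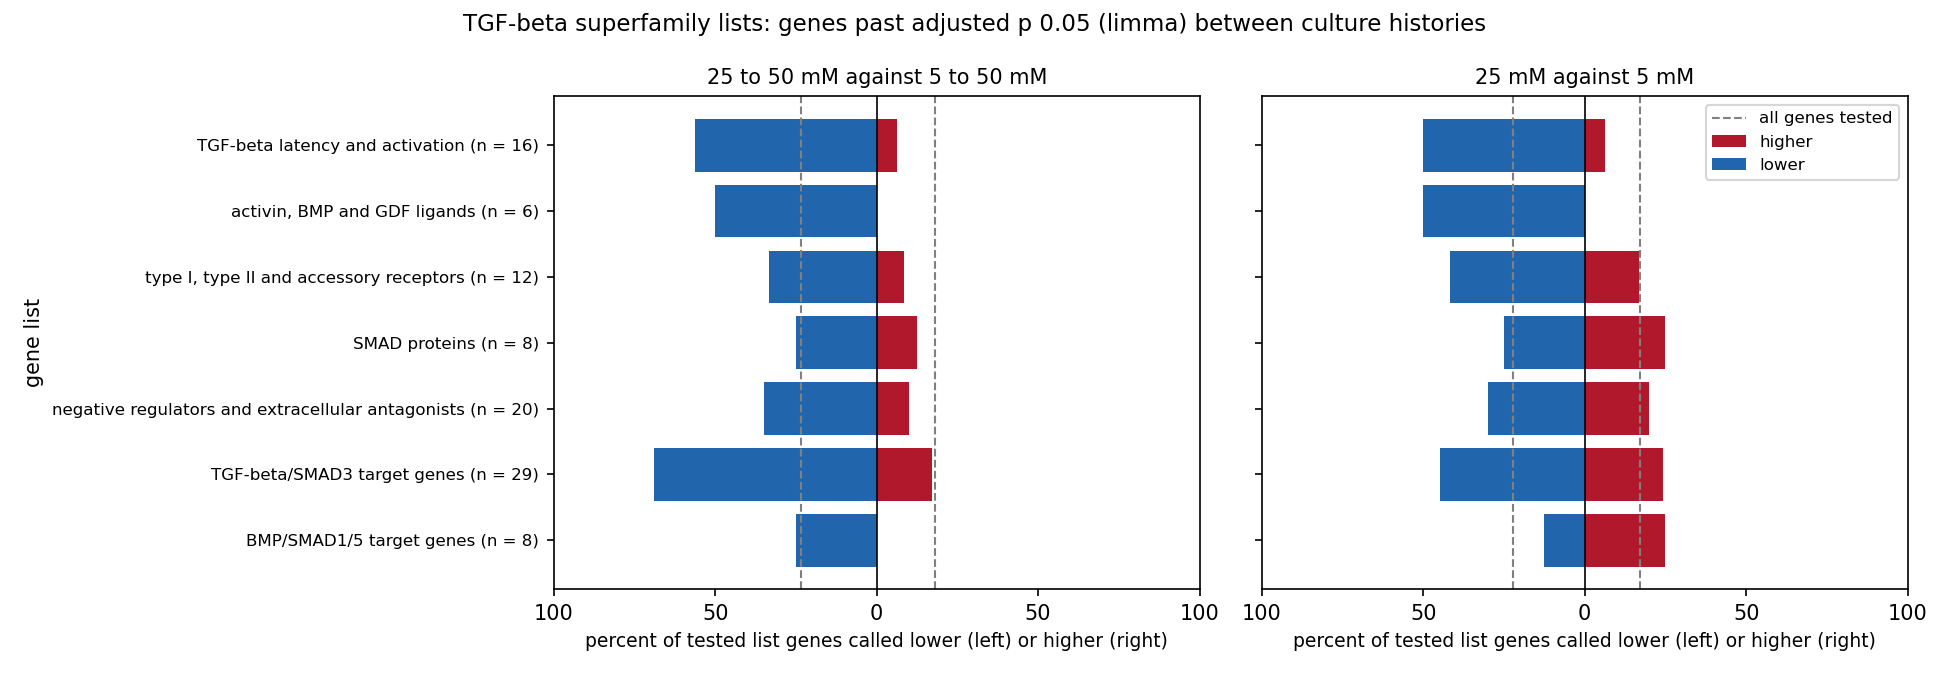
Bars show the percent of tested genes of each pathway list that were called higher (right of 0) or lower (left of 0) in the 2 comparisons of the histories, and dashed lines show the same percent over all genes tested. At 25 to 50 mM against 5 to 50 mM, 20 of 29 target genes and 9 of 16 latency and activation genes were called lower. Over all genes tested, 23.3% were called lower there.

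The genes whose pattern over the 8 libraries was most like that of each called member were sought by Pearson's r of log2(RPKM + 1), among 9602 genes whose mean reached 5 RPKM. For TGFB2 they were DDAH1 (r = 0.99), GALNT10 (0.989) and GPR176 (0.987). For TGFB1 they were TMEM64 (0.993), ZKSCAN4 (0.992) and RTN4 (0.988), and for INHBA they were ACTG2 (0.998), LDHA (0.995) and S1PR3 (0.995). For TGFBR3 they were PGK1 (0.997), LAMB1 (0.995) and FABP5 (0.993), and for SMAD7 IER3 (0.991), SLC36A4 (0.991) and C18orf21 (0.989). For LTBP1 they were RAB29, TEX264 and PLOD1, each at 0.997. The 8 points share their groups, so with 4 groups of 2 an r of this size is a description of likeness only.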

How the data were processed

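RNA from 8 AC16 libraries was sequenced. STAR and hg38 are listed in the submitters' processing notes, and the authors deposited RPKM values per gene in 2 tables, 1 per starting glucose. The counter, annotation and gene lengths are not given in the sources used here. Whole reads were recovered from the RPKM steps (99.9% of genes above 0 whole within 0.01) for depth, floors and voom only. Recovered lengths were divisible by 3 in 83.7% of genes, so RPKM is mostly per coding length. Of genes with a GENCODE coding length, 68.8% had a recovered length equal to one. The lengths of TGFB3 (1243), SMAD3 (1352), SMAD7 (1384) and LTBP1 (5221) were not divisible by 3. The intervals given here are those of the log2 changes fitted with limma. They reflect the spread between libraries, which may be purely technical.

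Genes reaching 1 RPKM in 2 or more fitted libraries were tested on log2(RPKM + 1) with limma 3.58.1 in R 4.3.3 (trend on, two-sided). P-values were adjusted by Benjamini-Hochberg over every gene tested, with a threshold of 0.05. Each rise was fitted on its own 4 libraries, and the other 3 comparisons on all 8 with a shared spread. The upper quartiles of RPKM differed by at most 1.065 times. The fit was also run on simulated data with the same spread in every group. The real groups differed in spread, so that run cannot show how far the calls in the rises hold. Coordinates and promoters are from RefSeq GRCh38.p14, matched for all 10 genes by Entrez number.

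Named list genes were up to 4 per list with the largest change among called genes averaging at least 5 RPKM; others were named as stated. A result on a listed gene is not reported here. The members and lists were chosen with earlier results of these data known. Alternatives were a pseudocount of 0.1, no filter, median centring, limma without trend, voom, a joint fit, a replicate block, leaving out each library and, added after the data were seen, a GC correction (spline with 5 degrees of freedom).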

Additional observations from a re-analysis of the deposited data

Results flagged for a closer look

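The LTBP1 libraries lay apart in opposite directions in the 2 rises. Both 5 to 50 mM libraries (8.30 and 8.57 RPKM) were below both 5 mM libraries (10.2 and 9.82 RPKM), and both 25 to 50 mM libraries (4.005 and 4.38 RPKM) were above both 25 mM libraries (3.80 and 3.69 RPKM). The log2 change from 5 mM minus that from 25 mM was -0.35 (95% interval -0.61 to -0.090), and the test of this difference did not pass adjustment (adjusted p = 0.687 in limma).

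ID3, a BMP target gene, showed the reverse pair of directions. It had 350.0 and 321.6 RPKM at 5 to 50 mM against 214.0 and 300.7 RPKM at 5 mM, and 350.7 and 263.2 RPKM at 25 to 50 mM against 365.6 and 381.1 RPKM at 25 mM. The difference between the rises was 0.70 on the log2 scale and did not pass either (adjusted p = 0.750 in limma).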

How the results depend on the processing

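After the rise from 5 mM, 39 genes were called. The count was 0 without a filter, 0 without limma's trend and 0 with the replicate block over all 8 libraries, and it was 60 with median centring, 130 with the joint fit and 139 with the GC correction. Leaving out 1 library gave 0 (without 5 to 50 mM replicate 2) to 805 (without 5 mM replicate 1), with 560 without 5 mM replicate 3 and 4 without 5 to 50 mM replicate 1. After the rise from 25 mM, 1 gene was called; the count was 0 without a filter, 0 without trend, 0 with the replicate block, 4 with centring, 4 with the joint fit, 5 with the GC correction and 7 with voom, and 0 (without either 25 mM library) to 777 (without 25 to 50 mM replicate 2) on leaving out 1 library. In the difference of the rises, 3 genes were called; the count was 0 with a pseudocount of 0.1, 1 without a filter, 1 without trend, 0 with voom, 0 with the replicate block and 5 with the GC correction, and 0 to 6 on leaving out 1 library. At 25 mM against 5 mM 4671 genes were called (2032 higher, 2639 lower), 3024 (without 25 mM replicate 1) to 4769 on leaving out 1 library, and with the GC correction 3816 were higher and 2286 lower. At 25 to 50 mM against 5 to 50 mM 4946 were called (2164 higher, 2782 lower), 3177 (without 5 to 50 mM replicate 1) to 5733 on leaving out 1 library, and 3242 without 5 to 50 mM replicate 2. There, centring gave 2799 higher and 2377 lower and the GC correction 4141 higher and 2299 lower; the GC correction shifted the median log2 change of all genes by 0.115. The cause of these moves was not tested.

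The TGFB2 call from 5 mM was lost without a filter (adjusted p = 0.131), without trend (0.0876) and with the replicate block (0.148). Replicate numbers 1 and 3 are shared by the 25 mM and 5 mM groups, whose differences between replicates correlated across genes (r = 0.258, 2 pairs), but the labels do not say that a number marks a shared culture or day.

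Of 621 values of members under the alternatives, 580 kept their direction and side of the threshold. The 26 changes of sign were all in differences that were not called. With the replicate block, the log2 change from 25 mM was -0.083 for TGFB1, 0.028 for TGFBR1 and 6.33e-05 for TGFBR2; that of TGFBR2 was 0.040 with centring and 0.013 with the GC correction. SMAD3 was 0.089 at 25 mM against 5 mM with the GC correction. Between the 50 mM groups it was 0.060 with centring, 0.048 with the replicate block and 0.12 with the GC correction. On leaving out 1 library, the log2 change from 25 mM ranged from -0.17 to 0.18 for TGFB1, from -0.19 to 0.0046 for TGFBR1 and from -0.049 to 0.031 for TGFBR2. From 5 mM it ranged from -0.093 to 0.13 for TGFBR1 and from -0.21 to 0.013 for TGFBR3. In the difference of the rises it ranged from -0.0015 to 0.22 for TGFBR1 and from -0.085 to 0.038 for SMAD3. Between the histories, SMAD3 ranged from -0.085 to 0.038 at the starting concentrations and from -0.014 to 0.013 at 50 mM, where TGFBR1 ranged from -0.067 to 0.15.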
